A study of Homo sapiens with 24 samples.

Results

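The replication-dependent histone genes of BT549 cells, a human triple negative breast cancer line, were followed through 3 experiments. They were chosen by symbol alone, as H1-1 to H1-5 and every H2AC, H2BC, H3C and H4C gene, a rule that reads no measured value. The rule found 60 genes among the 18154 named genes of the 3 tables. These were 5 linker histone (H1), 14 H2A, 16 H2B, 12 H3 and 13 H4 genes. In the first experiment, cells received the MYC inhibitor KJ-PYR-9 in DMSO (40 µM, 3 h), KJ-PYR-9 with DEX, DEX alone (dose and agent not given beyond that name) or VEH, the vehicle. In the second, cells were treated for 72 h with a siRNA pool against MYC (siMYC), or with siCtl (time not given). In the third, cells received MB-3 (MB3 in the labels, 100 µM, 3 h), an inhibitor of the acetyltransferase GCN5, or a second set of vehicle cultures (VEH2). Each of the 8 groups had 3 libraries, labelled as biological replicates of 1 cell line described as wild type, and the p-values below measure the spread between these. One MB3 library carries MED3 in its title but MB3 as its treatment, and it was kept in the MB3 group.

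Replication-dependent histone genes supply the H2A, H2B, H3 and H4 proteins of the nucleosome core and the H1 proteins that bind the linker DNA between cores. They are transcribed mainly in S phase, when new DNA has to be packaged, and they lie in clusters. Most are short genes without introns, whose mRNAs end in a conserved stem-loop in place of a poly(A) tail. Some members have longer spans in RefSeq, such as H2BC12 (chr6:27138293-27146858) and H2BC18 (chr1:149782689-149812370). The stem-loop is bound by SLBP and cut with the help of the U7 small nuclear RNP, and MYC is known as a driver of S phase entry. By the labels' protocols, total RNA depleted of ribosomal RNA was sequenced here, a preparation that does not select for a poly(A) tail. The MB-3 table nonetheless held few histone counts, as given below. A level is a normalized read count per gene, and in such bulk RNA fewer cells in S phase and less histone mRNA per cell cannot be told apart.

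By RefSeq on GRCh38.p14, 49 of the 60 genes lay on chromosome 6 and 11 on chromosome 1. The chromosome 6 genes formed a stretch of 29 genes (chr6:26017032-26285534) and one of 20 genes (chr6:27132316-27893891). The chromosome 1 genes lay within chr1:149782689-149887965. RefSeq promoters, 250 bases before to 50 after the start, were at hand for 55 of the genes. H2AC12, H3C11, H3C12, H4C1 and H4C3 had none in the table. The octamer ATTTGCAT, searched on both strands like the other motifs, is the element read by the POU factor POU2F1 in H2B promoters. It was present in 13 of 16 H2B and 10 of 13 H2A promoters, against 1.80% of 27305 promoters in the whole table. It was in 0 of 5 H1, 0 of 10 H3 and 0 of 11 H4 promoters. Where an H2A and an H2B gene start close together on opposite strands, their windows overlap and the same octamer was counted for both. This held for H2AC6 with H2BC4, H2AC7 with H2BC7, H2AC8 with H2BC8, H2AC11 with H2BC11, H2AC14 with H2BC14, H2AC17 with H2BC17 and H2AC20 with H2BC21. The TATA box letters TATAAA were in 38 of the 55 promoters, against 11.95% of all. The CCAAT box was in every H1, H2A, H2B and H3 promoter at hand and in 3 of 11 H4 promoters, against 35.7% of all. The E-box CACGTG, the letters that MYC with MAX is known to bind, was in 0 of the 55 and in 7.44% of all, which says only that these letters were not in this window.

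One promoter each of an H2B, an H4 and an H1 gene is printed because these 3 classes differed most in the results below. Capitals mark the octamer, TATAAA and CCAAT on either strand, and each sequence runs 5′ to 3′ along its gene, on GRCh38.p14. H2BC8 (minus strand, chr6:26216639-26216938) has the octamer at 48 bases, TATAAA at 32 bases and CCAAT at 78, 138 and 168 bases before the start, the last reversed. H4C2 (minus strand, chr6:26027234-26027533) has TATAAA at 31 and at 223 bases before the start and neither of the other motifs. H1-4 (plus strand, chr6:26156079-26156378) has CCAAT at 54, TATAAA at 29 and a reversed TATAAA at 148 bases before the start.
H2BC8: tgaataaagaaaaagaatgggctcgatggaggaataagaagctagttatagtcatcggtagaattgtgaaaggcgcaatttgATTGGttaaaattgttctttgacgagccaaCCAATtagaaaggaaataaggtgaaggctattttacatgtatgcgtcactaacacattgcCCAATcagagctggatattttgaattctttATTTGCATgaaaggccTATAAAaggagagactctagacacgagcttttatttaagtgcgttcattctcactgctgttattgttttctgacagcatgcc
H4C2: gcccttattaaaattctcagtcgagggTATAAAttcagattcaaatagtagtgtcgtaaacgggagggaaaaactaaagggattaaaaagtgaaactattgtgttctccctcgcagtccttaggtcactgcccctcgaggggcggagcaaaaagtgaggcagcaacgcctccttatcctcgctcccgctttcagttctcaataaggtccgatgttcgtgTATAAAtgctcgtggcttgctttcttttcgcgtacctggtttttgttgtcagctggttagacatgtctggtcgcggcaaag
H1-4: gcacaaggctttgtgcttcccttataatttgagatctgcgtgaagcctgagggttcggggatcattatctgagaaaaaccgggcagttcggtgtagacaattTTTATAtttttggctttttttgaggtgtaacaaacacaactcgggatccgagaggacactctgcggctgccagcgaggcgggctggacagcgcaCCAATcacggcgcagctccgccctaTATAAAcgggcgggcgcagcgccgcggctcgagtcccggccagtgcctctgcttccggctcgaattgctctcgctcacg

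The 3′ stem-loop was read from GENCODE v29 transcripts. Of 26 member genes with a transcript reaching at least 60 bases past the stop codon, 25 held it, 23 to 56 bases after the stop codon with a median of 36. The most frequent of the 6 sequences was shared by 13 genes. The 4 printed below show a stem found in H2A, H2B and H3 genes and the stem of H4 genes, with loops that vary within a class. The loop of 4 bases is in capitals and the 2 arms of the stem are in lower case. All 6 H4 transcripts had a stem that differed from those of the H2A, H2B and H3 genes, except that the second arm of H2AC11 matched the H4 form.
H2BC8: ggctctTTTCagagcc
H2BC4: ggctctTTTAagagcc
H4C5: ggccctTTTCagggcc
H4C14: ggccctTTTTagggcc

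The inhibitor libraries held about 5581670 to 30758100 recovered reads, the knockdown libraries 18765300 to 24154600 and the MB-3 libraries 8305570 to 19957500. The first DEX library stood apart: 26.0% of its normalized counts lay in features without a symbol, against 1.62% to 8.72% in the other 11 inhibitor libraries, and it had the lowest depth. Of 7 marker genes of the mesenchymal line, all 7 were detected in VEH (902 to 13881 normalized counts) and in siCtl (1872 to 24271). Of 7 epithelial, hormone receptor and leukocyte markers, 5 were in the inhibitor table, at 0 to 495 normalized counts in VEH. PTPRC, the leukocyte marker, was at 5.72 to 7.19 there, and GATA3, at 281 to 495, was the highest. MYC, the siRNA target, had 1655, 1789 and 1710 normalized counts in siMYC, against 2313, 2269 and 2138 in siCtl. That is a log2 fold change of -0.38 ± 0.11 (SE) with no overlap, but the adjusted p of 0.059 missed the threshold. MYC averaged 9853 ± 1408 in KJ-PYR-9, 4160 ± 440 in KJ-PYR-9+DEX, 18424 ± 1364 in DEX and 1806 ± 598 in VEH (SD, n = 3 each). MYC was higher in DEX than in VEH by 3.396 on the log2 scale. The labels do not say what DEX is, so whether this is the response to that agent could not be checked, and each DEX comparison takes the labels as given.

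After 3 h of KJ-PYR-9 the core histone genes rose together, and the H2B genes rose the most. Of 57 tested members, 41 were higher than in VEH and 1 was lower (limma on log2(value + 1), two-sided, adjusted p under 0.05 over all genes), while 25.4% of the 13616 genes tested were higher and 17.5% were lower. The member median was a log2 fold change of 1.08, against 0.06 for all genes. In 45 members the 3 KJ-PYR-9 libraries lay above all 3 VEH libraries, as they did in 35.4% of all genes. Of the 42 calls, 11 ended when some single library was left out. These were H1-1, H2AC16, H2AC18, H2AC19, H2BC6, H3C8, H3C13, H4C1, H4C2, H4C3 and H4C4. H3C14, H3C6 and H4C15 averaged under 10 normalized counts and were not tested.

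All 16 H2B genes rose, by log2 fold changes of 1.03 to 2.07 with a median of 1.53. The call of H2BC6, a gene with a mean of 19.3 normalized counts, ended without VEH 1, VEH 3, KJ-PYR-9 1 or KJ-PYR-9 3 (limma, adjusted p from 0.064 to 0.091). H2BC14 (chr6:27815022-27815489, plus strand) had 1851, 1993 and 1974 normalized counts in KJ-PYR-9, against 361, 516 and 522 in VEH. It showed the largest member change, 2.07 ± 0.19 (SE, adjusted p = 0.00012), and its groups were far apart. H2BC12, the H2B gene with the highest mean count, had 7631, 9098 and 8106 in KJ-PYR-9, against 2590, 3150 and 2856 in VEH. Its change was 1.53 ± 0.15 (adjusted p = 0.00019), again with no overlap. H2BC8, whose promoter is printed above, had 5738, 6404 and 5452 in KJ-PYR-9, against 1525, 2013 and 1836 in VEH, a change of 1.72 ± 0.17 (adjusted p = 0.00016). The 3 H2B genes without the octamer changed by 1.31 to 1.59, inside the range of 1.03 to 2.07 of the 13 that hold it.

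Among the H2A genes 11 of 14 rose, with a class median of 1.17. H2AC8 (chr6:26216921-26217437, plus strand) shares the stretch between the genes with H2BC8. It had 6631, 7782 and 6286 normalized counts in KJ-PYR-9, against 1910, 2704 and 2094 in VEH, a log2 fold change of 1.63 ± 0.20 (adjusted p = 0.00056). Every KJ-PYR-9 library was above every VEH library. The H2A genes that missed the threshold were H2AC4 at 0.60, H2AC17 at 0.62 and H2AC7 at -0.20, of which H2AC4 and H2AC17 passed with the replicate block. H2AC7 had an SE of 0.90, and it overlaps H3C4 on the same strand in RefSeq.

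Both H3 and H4 had 7 genes that rose, of 10 and 12 tested, with class medians of 0.85 and 0.84. Without VEH 1 or without KJ-PYR-9 2, only 3 H4 genes were called, since H4C1, H4C2, H4C3 and H4C4 missed the threshold. H3C10 (chr6:27810051-27810536, plus strand) had 8102, 9612 and 8572 normalized counts in KJ-PYR-9, against 2165, 3136 and 2571 in VEH, a log2 fold change of 1.75 ± 0.19 (adjusted p = 0.00032). H4C5 (chr6:26204610-26205021, plus strand) had 6222, 8269 and 5888 in KJ-PYR-9, against 1718, 2725 and 2487 in VEH, a change of 1.57 ± 0.31 (adjusted p = 0.0039). Neither gene showed overlap between the groups. H3C1 at 0.25, H3C2 at 0.64 and H3C15 at -0.51 were the H3 genes that missed the threshold, which H3C2 passed with the block.

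The H1 genes did not follow the core histones. None of the 5 rose, and all 5 fold changes were negative, with a median of -0.30. H1-4, the H1 gene with the highest mean count, had 3717, 5463 and 2785 normalized counts in KJ-PYR-9, against 3964, 4915 and 3210 in VEH. The groups overlapped and the change was -0.05 ± 0.29 (adjusted p = 0.90). H1-1 fell to 60.2, 77.9 and 52.7 in KJ-PYR-9, against 93.5, 127 and 106 in VEH, by -0.77 ± 0.27 on the log2 scale (adjusted p = 0.038). That call ended when VEH 1, 2 or 3, or KJ-PYR-9 1 or 3, was left out, with adjusted p-values of 0.059 to 0.13.

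Summed over each class, the H2B genes held 68424 ± 6338 normalized counts in KJ-PYR-9 and 24289 ± 3032 in VEH, 2.82 times as many (SD, n = 3 each). The H4 total was 2.45 times, the H2A total 2.35 times and the H3 total 2.08 times that of VEH, each with every KJ-PYR-9 library above every VEH library. The H1 total was 0.905 times that of VEH, and its libraries overlapped. Histone genes made up 0.890% to 1.19% of the normalized counts of named genes in KJ-PYR-9, against 0.560% to 0.734% in VEH.

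**Figure D1:**
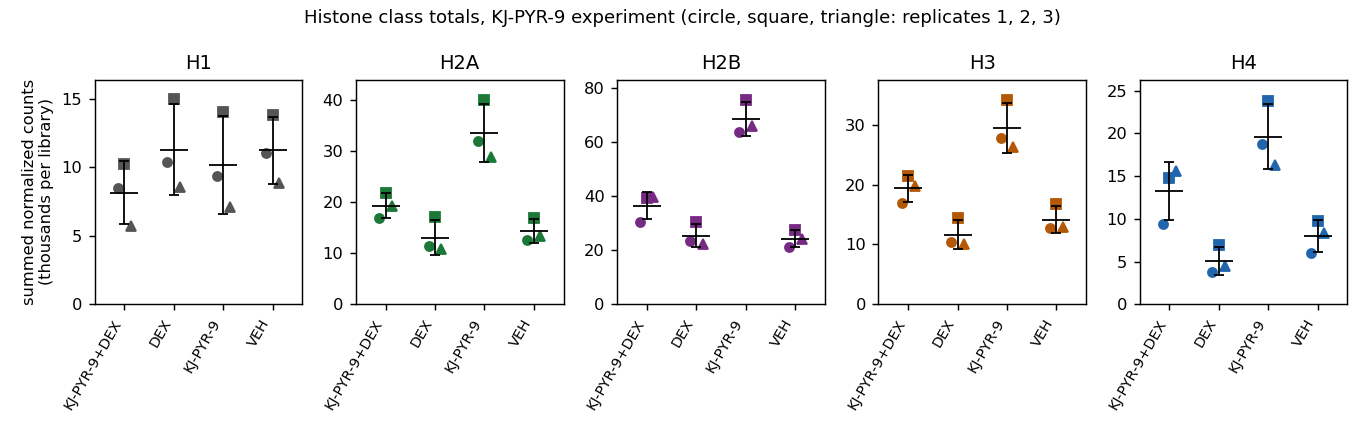
Summed normalized counts (in units of 1000, vertical axis) of each histone class in the 12 inhibitor libraries, with points for replicates 1 to 3 and a bar for the mean ± SD. The KJ-PYR-9 libraries sit above the VEH libraries in H2A, H2B, H3 and H4 and overlap them in H1.

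Histone transcripts are short and rich in GC. Their median length in GENCODE v29 was 495.5 bases with a median GC content of 57.3%, against 1657.5 bases and 50.02% over all genes. When the trends of expression with GC content and length were removed in the fit with the replicate number as a block, 33 members were higher and 5 were lower, against 18.3% and 16.8% of all genes, and the member median was 0.59 in place of 1.08. H2B kept 15 higher genes and a median of 1.42, and H2A had 8 higher and a median of 0.54. H3 had 6 higher and a median of 0.40, and H4 had 4 higher and a median of 0.20. All 5 H1 genes were lower with a median of -0.75. H2AC18, H2AC19, H3C2 and H3C3 had no matched transcript, so here and below they entered the corrected fits with uncorrected values. Without the block, this correction left 24 of the 57 members higher and 1 lower, when 12.4% of all genes were higher and 11.1% lower.

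**Figure D2:**
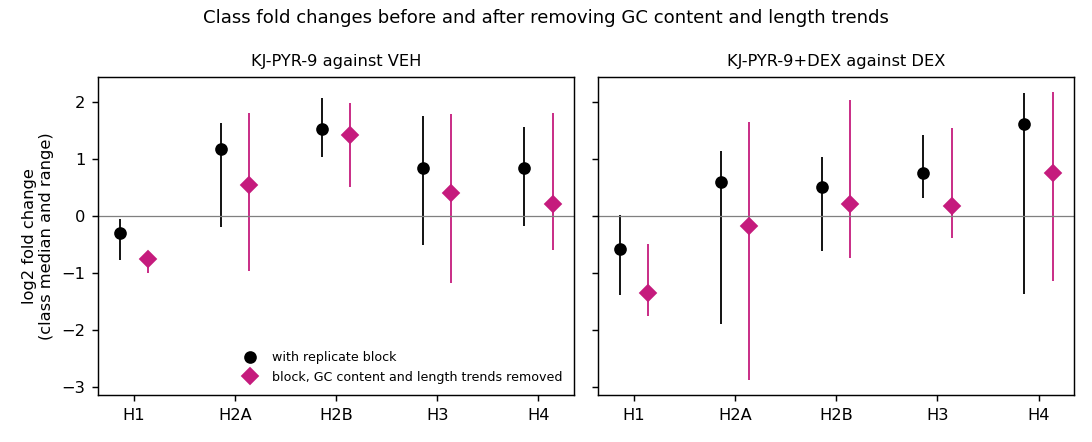
Median (marker) and range (line) of the log2 fold changes in each histone class, from the fit with the replicate block before and after trends with GC content and transcript length were removed. For KJ-PYR-9 against VEH the H2B median was 1.53 before and 1.42 after, while for KJ-PYR-9+DEX against DEX the H2A median was 0.59 before and -0.18 after.

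DEX alone changed few members in the fit without the replicate block. Of the 57, 1 was higher than in VEH and 5 were lower, near or under the 9.5% and 8.02% of all genes. With the block 18 were lower and 2 higher, against 19.6% and 23.9% of all genes. The member median was -0.21, against 0.02 for all genes. The 5 lower genes belonged to H3 (H3C1 and H3C15) and H4 (H4C1, H4C2 and H4C13), and the higher one was H2BC14. The DEX and KJ-PYR-9 comparisons share the VEH libraries.

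H4C13 had 33.6, 75.6 and 65.8 normalized counts in DEX, against 112, 168 and 150 in VEH, a log2 fold change of -1.34 ± 0.33 (adjusted p = 0.022) with no overlap. H4C2 had 345, 704 and 458 in DEX, against 749, 1279 and 1133 in VEH, a change of -1.09 ± 0.32 (adjusted p = 0.038). H3C1 had 275, 278 and 192 in DEX, against 448, 609 and 485 in VEH, a change of -1.05 ± 0.22 (adjusted p = 0.011). All 3 genes had every DEX library below every VEH library. The H4C13 call ended without VEH 2, VEH 3 or DEX 1, and the H4C2 call also without DEX 3 (adjusted p from 0.056 to 0.15 over both), while H3C1 was the member call that no single library ended. H3C15, at 6.10, 13.7 and 5.22 in DEX, against 58.3, 15.3 and 17.2 in VEH, was near the floor of 10, and its change of -1.59 ± 0.46 (adjusted p = 0.038) became -0.99 without VEH 1 (adjusted p = 0.085). The H3C15 call also ended without VEH 3, DEX 1 or DEX 3. H3C15 also lies within H4C15 on the opposite strand.

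H2BC14 had 665, 826 and 708 in DEX, against 361, 516 and 522 in VEH, a change of 0.67 ± 0.19 (adjusted p = 0.038). The groups did not overlap, but the call ended without VEH 1, 2 or 3 or DEX 1 or 2 (adjusted p from 0.063 to 0.12). The most abundant member of the other classes moved little in DEX, with overlapping groups. H1-4 changed by -0.24, H2AC8 by 0.29, H2BC12 by 0.02 and H3C10 by -0.08, none of which passed. H2AC8 passed with the replicate block and the GC content and length correction together (0.54, adjusted p = 0.0092). H4C5 had 991, 1973 and 1284 in DEX, against 1718, 2725 and 2487 in VEH, and its change of -0.74 (adjusted p = 0.11) passed with the replicate block (adjusted p = 0.017).

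The replicate numbers of the inhibitor experiment were taken as pairs only in the fits with the replicate block, and replicate 1 paired weakly. Counts, SEs and adjusted p-values given without mention of the block come from fits that ignore the pairing. With the number as a block DEX left 18 members lower and 2 higher, when 19.6% of all genes were lower and 23.9% higher. With the GC content and length correction added, 11 were lower and 7 higher, when 8.26% of all genes were lower and 8.95% higher. The H4 total held 3764, 6904 and 4471 normalized counts in DEX, against 6013, 9702 and 8356 in VEH. Each DEX library was below the VEH library of its own number, while the groups overlapped. Without DEX 1, the library that stands apart, 1 member was called, and without VEH 3 likewise 1, while leaving out VEH 2 left 2.

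With DEX present, core histone genes were again higher with KJ-PYR-9, and here the H4 genes showed the largest changes. Compared with DEX, 30 of 57 members were higher in KJ-PYR-9+DEX and 2 were lower, but 33.6% of all genes were higher and 35.1% were lower. The member median was 0.65, against 0.00 for all genes (0.0007). In 30 members every KJ-PYR-9+DEX library was above every DEX library, as in 33.8% of all genes. This comparison depended on the correction for GC content and length: with it and the block, 22 members were higher and 15 lower, against 21.2% and 21.4% of all genes, and the member median was 0.02. Without the block the correction left 17 higher and 7 lower, against 16.3% and 16% of all genes.

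Of 12 tested H4 genes 7 rose and 1 fell, with a class median of 1.61. H4C5 had 2790, 4737 and 5623 normalized counts in KJ-PYR-9+DEX, against 991, 1973 and 1284 in DEX, a log2 fold change of 1.63 ± 0.31 (adjusted p = 0.001) with no overlap. H4C2, printed above, had 1242, 2018 and 2311 in KJ-PYR-9+DEX, against 345, 704 and 458 in DEX, a change of 1.90 ± 0.32 (adjusted p = 0.00049). H4C6 had the largest fitted change, 2.16 ± 0.72 (adjusted p = 0.019), on few reads: 10.0, 17.3 and 33.4 in KJ-PYR-9+DEX, against 0, 7.29 and 8.35 in DEX. Its call ended without KJ-PYR-9+DEX 3 (adjusted p = 0.076) and under the GC content and length correction.

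H4C9 was the H4 gene that fell, to 56.2, 17.3 and 25.5 in KJ-PYR-9+DEX, against 79.3, 74.7 and 77.2 in DEX, a change of -1.37 ± 0.36 (adjusted p = 0.0059). It lies within H2BC12 on the opposite strand, and whether the libraries keep strand was not given, so reads of the 2 genes cannot be told apart. After the correction with the block, 6 H4 genes were higher and 2 lower, with a class median of 0.75.

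In the H3 class 8 of 10 genes rose, with a median of 0.75. H3C10 had 3895, 5183 and 6206 in KJ-PYR-9+DEX, against 2373, 2837 and 2214 in DEX, a change of 1.02 ± 0.19 (adjusted p = 0.00098). H3C1 had 507, 764 and 733 in KJ-PYR-9+DEX, against 275, 278 and 192 in DEX, a change of 1.42 ± 0.22 (adjusted p = 0.00033). Both genes had no overlap, and H3C1 missed the threshold when GC content and length trends were removed without the block (0.55, adjusted p = 0.092).

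Of the H2A genes 6 of 14 rose, and of the H2B genes 9 of 16 rose, with medians of 0.59 and 0.50. H2BC12 had 4190, 5159 and 5532 in KJ-PYR-9+DEX, against 2907, 3313 and 2505 in DEX, a change of 0.77 ± 0.15 (adjusted p = 0.0013), and H2BC9 changed by 1.03 ± 0.26 (adjusted p = 0.0048). H2AC13 had 1506, 2031 and 1950 in KJ-PYR-9+DEX, against 613, 1274 and 718 in DEX, a change of 1.14 ± 0.27 (adjusted p = 0.0034). None of these 3 genes showed overlap. H2AC8 changed by 0.27 ± 0.20 (adjusted p = 0.24) with overlapping groups. The correction turned H2BC12 to -0.16 and H2AC8 to -0.25, and the class medians became 0.21 for H2B (8 higher, 2 lower with the block) and -0.18 for H2A (3 higher, 5 lower).

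H1-3 fell to 457, 638 and 287 in KJ-PYR-9+DEX, against 1190, 1505 and 831 in DEX, by -1.38 ± 0.35 on the log2 scale (adjusted p = 0.0049), with no overlap. H1-4 was at 0.01 ± 0.29 (adjusted p = 0.98). With the correction it was at -0.82, past the threshold with the replicate block (adjusted p = 0.00032) and not without it (adjusted p = 0.091). No H1 gene rose in either KJ-PYR-9 comparison.

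**Figure D3:**
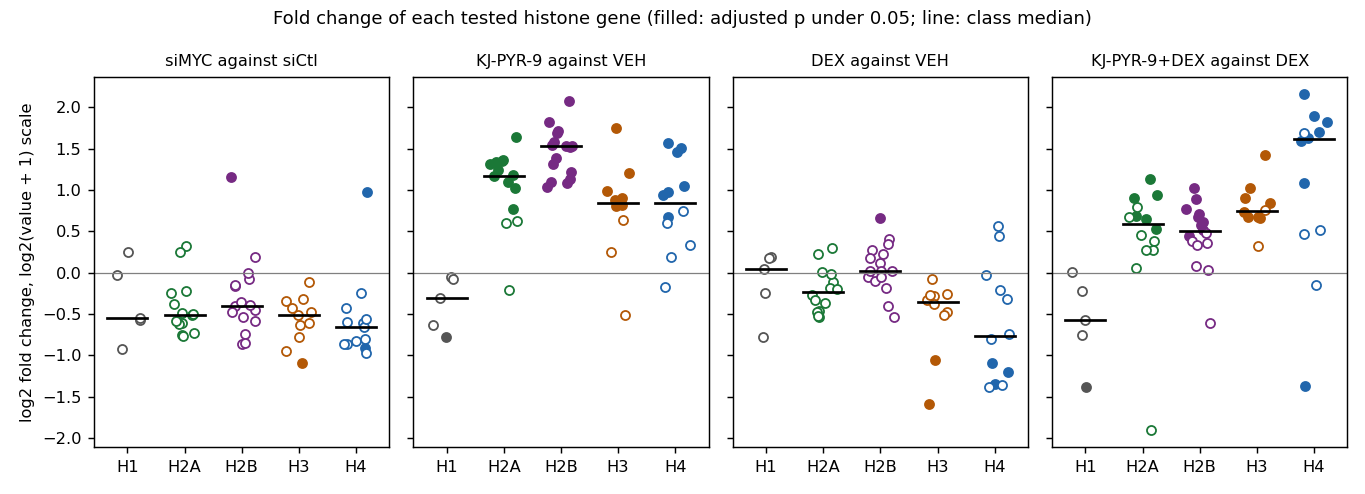
Log2 fold change (vertical axis) of each tested member by histone class in 4 comparisons, with filled points for an adjusted p under 0.05 and a line at the class median. All 16 H2B points are filled and above 1.03 for KJ-PYR-9 against VEH, and the H4 median reaches 1.61 for KJ-PYR-9+DEX against DEX.

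The difference between the KJ-PYR-9 effects with and without DEX was tested as an interaction, which uses all 12 libraries. It was negative, a smaller rise with DEX, in 13 of 57 members and positive in 1, when 9.62% of all genes had a lower and 7.15% a higher effect. The all-gene median was -0.11 and the member median -0.45. The negative calls were 11 of 16 H2B genes and the H2A genes H2AC8 and H2AC21. None of the 12 H4 and 5 H1 genes passed, and the H4 median was 0.07.

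H2BC14 differed the most, by -1.99 ± 0.27 (adjusted p = 0.00073). It had 606, 799 and 959 normalized counts in KJ-PYR-9+DEX and 665, 826 and 708 in DEX, which overlap, while KJ-PYR-9 and VEH were far apart, as given above. H2BC4 differed by -1.66 ± 0.19 (adjusted p = 0.00023), and H2AC8 differed by -1.36 ± 0.28 (adjusted p = 0.0079). H2BC12 differed by -0.76 ± 0.22 (adjusted p = 0.036), a call that ended when any of 8 of the 12 libraries was left out (adjusted p from 0.057 to 0.093).

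H3C1 was the member with the positive difference, 1.17 ± 0.31 (adjusted p = 0.025). It had 583, 738 and 520 in KJ-PYR-9, near the VEH values of 448, 609 and 485, so its rise in KJ-PYR-9+DEX stood against the lower DEX level. The call ended without VEH 2, KJ-PYR-9 1 or 3, or KJ-PYR-9+DEX 2 (adjusted p from 0.052 to 0.063). H1-4 (0.06), H3C10 (-0.73) and H4C5 (0.06) did not pass, except H3C10 with the replicate block (adjusted p = 0.027) and without KJ-PYR-9+DEX 3 (adjusted p = 0.045).

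With the block, 24 members had a lower and 3 a higher effect, when 20% of all genes had a lower and 12.4% a higher one, and 14 of the 24 were H2B genes. Leaving out KJ-PYR-9 1 or KJ-PYR-9 2 left 9 calls each, and without DEX 1 there were 11, of which 10 were lower. With GC content and length trends removed without the block, 11 H2B genes had the lower effect, when 8.55% of all genes had, and the H2B median was -0.95. The 11 H2B calls became 6 without KJ-PYR-9 2, and 7 without VEH 1, VEH 3, DEX 2 or KJ-PYR-9 1.

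**Figure D4:**
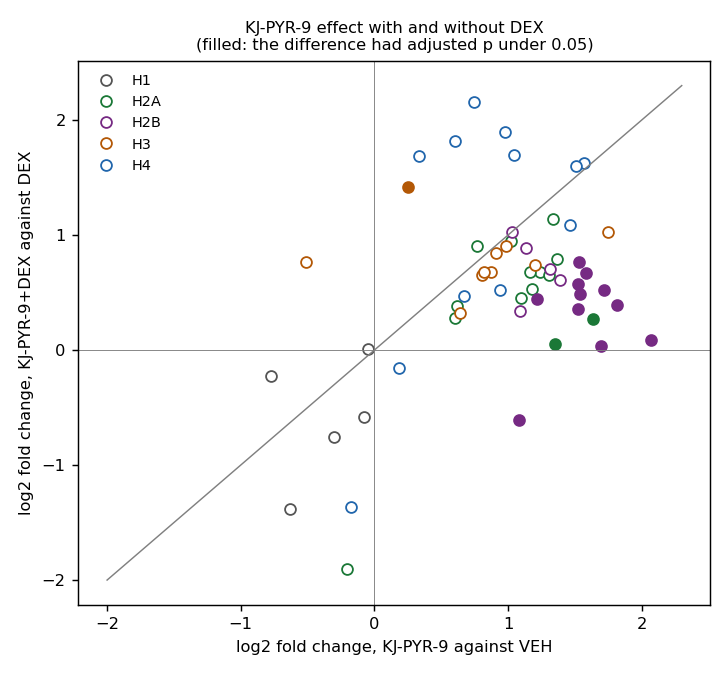
Log2 fold change of each member for KJ-PYR-9+DEX against DEX (vertical axis) and for KJ-PYR-9 against VEH (horizontal axis), with the diagonal of equal effects and filled points where the difference had an adjusted p under 0.05. The 11 filled H2B points lie below the diagonal, and H3C1 is the filled point above it.

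The 72 h MYC knockdown showed the opposite sign in most members, at a smaller size. In siMYC, 53 of 59 tested members had a negative log2 fold change and 6 a positive one, with a median of -0.52 against 0.05 for all genes. At the adjusted threshold only 2 were lower (H3C2 and H4C3) and 2 higher (H2BC6 and H4C9), when 4.78% of all 14788 genes were lower and 11.4% were higher. In 32 members every siMYC library was below every siCtl library, as in 17.1% of all genes. On the recovered whole reads, edgeR called 18 members lower and 2 higher, with 8.24% of all genes lower, and DESeq2 called 30 lower and 2 higher, with 11.9% of all genes lower.

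H3C2 (chr6:26031589-26032099, minus strand) had 2862, 3404 and 1746 normalized counts in siMYC, against 5097, 5133 and 6319 in siCtl, a log2 fold change of -1.09 ± 0.26 (adjusted p = 0.036) with no overlap. H4C3 had 1172, 1387 and 813 in siMYC, against 1885, 1885 and 2445 in siCtl, a change of -0.91 ± 0.23 (adjusted p = 0.041). In both genes siMYC 3 was the lowest library. Both calls ended without siMYC 3 or any one of the siCtl libraries, with adjusted p-values of 0.062 to 0.12 for H3C2 and 0.091 to 0.13 for H4C3. H4C8, the H4 gene with the highest mean count, had 2384, 2761 and 1305 in siMYC, against 3840, 3805 and 4385 in siCtl, a change of -0.97 ± 0.28 (adjusted p = 0.060) that passed with edgeR (adjusted p = 0.029) and DESeq2 (adjusted p = 0.0012).

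The most abundant members of the other classes had negative values as well. H1-4 had 4720, 5582 and 3225 in siMYC, against 5986, 6254 and 7020 in siCtl, a change of -0.54 ± 0.21 (adjusted p = 0.12) with no overlap. H2AC6 had 3618, 4121 and 2409 in siMYC, against 4113, 4267 and 4489 in siCtl, a change of -0.38 ± 0.21 (adjusted p = 0.24), and siMYC 2 overlapped siCtl. H2BC12 had 2515, 2896 and 1947 in siMYC, against 2955, 3135 and 3545 in siCtl, a change of -0.40 ± 0.18 (adjusted p = 0.15) with no overlap.

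The higher genes were of low level. H2BC6 had 44.6, 52.4 and 45.4 in siMYC, against 18.8, 21.8 and 21.7 in siCtl, a change of 1.15 ± 0.13 (adjusted p = 0.0081). H4C9, which overlaps H2BC12 on the opposite strand, had 131, 143 and 177 in siMYC, against 71.1, 77.4 and 77.8 in siCtl, a change of 0.98 ± 0.15 (adjusted p = 0.014). Neither showed overlap between the groups, and the H4C9 call ended without any one of the siCtl libraries (adjusted p from 0.051 to 0.054). H4C9 was highest in siMYC 3, the library in which H3C2, H4C3 and H4C8 were lowest.

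Class totals were lower in siMYC for all 5 classes, with no overlap. The H4 total was 8216 ± 2516 normalized counts in siMYC and 14255 ± 993 in siCtl, 0.576 times (SD, n = 3 each), and the H3 total was 0.651 times that of siCtl. The H1, H2A and H2B totals were 0.693, 0.715 and 0.753 times those of siCtl. The library siMYC 3 was the lowest in every class: its H4 total was 5442, against 8852 and 10353 in the other 2 siMYC libraries. Without siMYC 3, 2 members were called, both higher, and 45 of 59 fold changes were negative. Without any one of the siCtl libraries 1 member was called, and without siMYC 2 there were 12, of which 10 were lower.

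**Figure D5:**
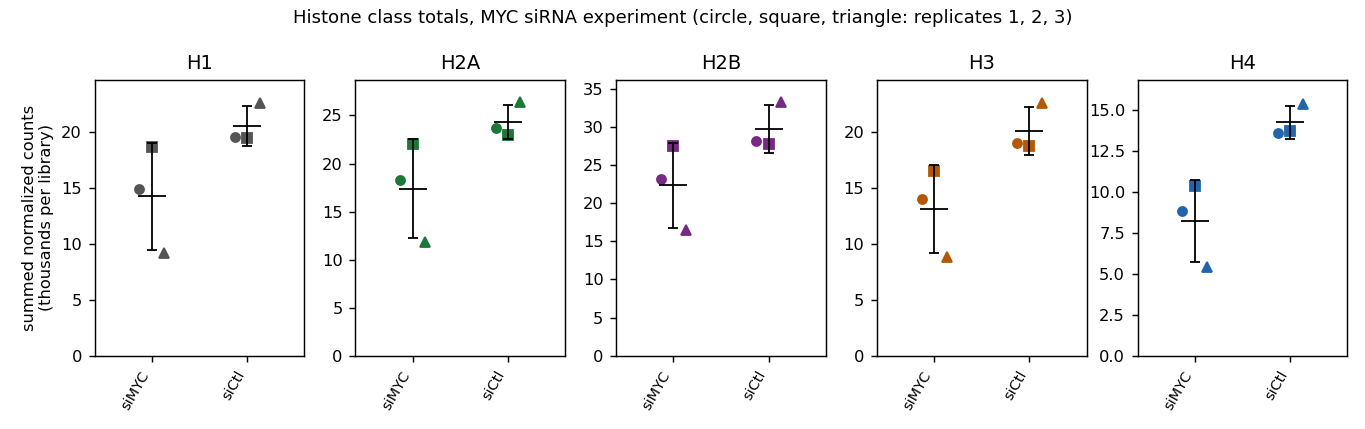
Summed normalized counts (in units of 1000, vertical axis) of each histone class in the 6 knockdown libraries, with points for replicates 1 to 3 and a bar for the mean ± SD. Every siMYC point is below every siCtl point in its class, and siMYC 3 (triangle) is the lowest.

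Between the experiments, 47 of the 57 members tested in both had opposite signs in KJ-PYR-9 against VEH and siMYC against siCtl. Over all 13137 genes tested in both, 35.5% had opposite signs, against 82.5% of the members. Across the 57 members the fold changes had a Pearson correlation of -0.11 and a Spearman correlation of 0.06. The members of an experiment share its libraries and are not independent of each other. The 2 experiments also differ in time (3 h and 72 h) and agent, and their tables were normalized separately.

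The MB-3 table held genes with a mean of at least 83.9 normalized counts and 2 members, H2AC6 and H2BC12. The other members were absent from that table and were not analysed here for MB-3. Over all its libraries H2AC6 averaged 158, against 3731 in the inhibitor libraries, and H2BC12 averaged 190, against 4753. Histone genes made up 0.0024% to 0.0031% of the normalized counts of named genes in VEH2, against 0.560% to 0.734% in VEH. The cause of this gap was not tested, and the MB-3 result cannot be set beside those of the other experiments. H2AC6 had 153, 145 and 188 in MB3, against 146, 144 and 171 in VEH2, a log2 fold change of 0.07 ± 0.12 (adjusted p = 0.79). H2BC12 had 119, 192 and 225 in MB3, against 166, 211 and 227 in VEH2, a change of -0.21 ± 0.23 (adjusted p = 0.68). The groups overlapped for both genes. Over all 10048 genes limma called 0.0299% higher and 0.0299% lower, 3 genes each, and at an unadjusted p under 0.05 there were 567 higher and 810 lower, among them 0 of the 2 members.

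Position and partner were compared with the changes, as descriptions. Among genes with a RefSeq promoter at hand, 8 pairs of an H2A and an H2B gene start from a shared stretch on opposite strands, 223 to 248 bases apart. H2AC12 and H2BC12 also lie this way by RefSeq position and GENCODE v29 strand. H2AC12 had no promoter in the table, so that pair was left out of the counts below. The H2B partner had the larger KJ-PYR-9 fold change in 8 of 8 pairs, by a median of 0.44 on the log2 scale, although both partners lie on the same stretch of DNA. H2AC14 and H2BC14 were the widest such pair among those with both partners called, at 1.09 and 2.07, and H2AC8 and H2BC8 were close, at 1.63 and 1.72. In siMYC the H2B partner had the higher value in 6 of 8 pairs, and for KJ-PYR-9+DEX against DEX in 3 of 8. By chromosome stretch, the KJ-PYR-9 medians were 1.01 and 1.20 for the first and second stretch of chromosome 6 and 1.17 for chromosome 1. The stretches lay closer together than the class medians, which ran from -0.30 to 1.53.

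Some members share sequence. The promoters of H4C14 and H4C15 on chromosome 1 were equal in all 300 bases, and H2AC18 and H2AC19, and H3C14 and H3C15, are likewise near-identical copies, so how reads were divided between them is uncertain. By RefSeq, 7 members overlap another gene on the opposite strand and 2 on the same strand. H2BC18 overlaps FCGR1A on the opposite strand, and H2BC5 likewise overlaps H2BC6-AS1.

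Histone genes outside the rule were followed as a list of 20, mostly variants made outside S phase. The counts of this and the following lists are read against the shares of all genes given above for each comparison. After KJ-PYR-9, 5 of 15 tested were higher than in VEH and 1 was lower (25.4% and 17.5% of all genes), the lower being the centromeric CENPA at -0.69. H2BU1 (2.37, adjusted p = 0.00059) and H2AW (1.85, adjusted p = 0.001) encode H2B and H2A proteins of the canonical type from another locus, and H3-5 changed by 1.31. In KJ-PYR-9+DEX against DEX 8 were higher and 0 lower (2 lower with the replicate block), or 6 and 4 with the block and the GC content and length correction, which moved the list median of 0.54 to -0.09. The higher were led by H4-16, a further H4 gene (1.64, adjusted p = 0.00016). DEX against VEH gave 0 higher, also at an unadjusted p under 0.05, and 2 lower (4 with the block), the 2 being H4-16 at -1.28 and MACROH2A2 at -0.91. In siMYC limma called 5 of 16 higher and 0 lower, also at an unadjusted p under 0.05, while edgeR called 0 and DESeq2 2 lower.

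Of 43 S phase and DNA replication genes, 17 were higher and 4 lower in KJ-PYR-9 than in VEH, when 25.4% and 17.5% of all genes were, led by the DNA polymerase subunit POLD1 (1.40, adjusted p = 0.0014), the helicase subunits MCM5 (1.26) and MCM2 (1.29) and the licensing factor CDT1 (1.03). In KJ-PYR-9+DEX against DEX 16 were higher and 15 lower, near the 33.6% and 35.1% of all genes, and in DEX against VEH 0 were higher (1 at an unadjusted p under 0.05, 0 with edgeR and 1 with DESeq2) and 4 lower, against 9.5% and 8.02%. With the replicate block these counts were 19 higher and 12 lower in KJ-PYR-9 (32.2% and 25.8% of all genes), 17 and 19 in KJ-PYR-9+DEX (37.1% and 38.2%), and 6 and 9 in DEX. With the correction added they were 10 and 4 in KJ-PYR-9, 12 and 5 in KJ-PYR-9+DEX, and 0 and 4 in DEX. In siMYC limma called 0 in either direction, with a list median of -0.16. At an unadjusted p under 0.05 there were 0 higher and 6 lower, and edgeR and DESeq2 called 2 and 8 lower.

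Of 25 genes for transcription and 3′ processing of histone mRNA, 5 were higher and 7 lower in KJ-PYR-9, or 5 and 12 with the replicate block and 3 and 4 with the block and the correction. The U7 snRNP proteins went opposite ways, LSM10 at 0.83 and LSM11 at -0.86. In KJ-PYR-9+DEX against DEX 6 were higher and 15 lower, or 6 and 5 with the block and the correction, among them the decay factor UPF1 (1.28) and the histone locus body protein CASP8AP2 (-1.57). DEX gave 1 higher and 2 lower (9 and 5 with the block, 2 and 4 with the correction added), and siMYC 0 higher and 1 lower, the helicase MTREX (-1.12, adjusted p = 0.044), with 1 higher and 5 lower at an unadjusted p under 0.05 and 3 lower with edgeR and with DESeq2. In MB3 limma called 0 genes of these 3 lists. At an unadjusted p under 0.05, 2 of 10 tested histone genes outside the rule and 6 of 43 S phase genes were lower, and 0 of the 25 processing genes.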

How the data were processed

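BT549 RNA was sequenced in 24 libraries, 3 in each of 8 groups. Per the labels' protocols, total RNA was depleted of ribosomal RNA, made into libraries with NEBNext kits and sequenced as paired ends on a NovaSeq. Tools named in the submitters' processing notes are DESeq2, featureCounts, SAMtools and bcl2fastq, with the build GRCh38. Aligner, annotation, strandedness and versions: not given in the sources used here. Each file held a deposited signal, the authors' count per gene normalized by a factor of its library, in which values are whole multiples of what 1 read is worth (within 0.0001). The recovered reads served edgeR 4.0.16 and DESeq2 1.42.0 as alternatives in the knockdown and inhibitor experiments; MB3 was tested with limma alone.

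Values of repeated symbols were summed, and features without a symbol stayed out. limma 3.58.1 (R 4.3.3) compared log2(value + 1) of genes whose mean was at least 10. Tests were two-sided, and p-values were adjusted over all genes (Benjamini-Hochberg) with 0.05 as the threshold. The 12 inhibitor libraries shared 1 fit. Fold changes are on that log2 scale with the SE, which understates the change of low genes, and levels are normalized counts with the SD. The fit was run on simulated counts with the same dispersion for every gene and no replicate, GC content or length effects. That run cannot show how the fit deals with such effects. Alternatives were a pseudocount of 8, no filter, a mean of 50, TMM rescaling, the count tests, removal of GC content and length trends (lowess over GENCODE v29 transcripts, 56 of 60 members and 17114 of 18154 genes matched), the replicate block, fits of only the groups compared, and each library left out.

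Same-numbered libraries deviated together in the inhibitor experiment (correlations of 0.13 to 0.52 over 18 pairs) and the MB-3 experiment (0.21 to 0.39 over 3 pairs). Their numbers were therefore taken as pairs in the fits with the replicate block, while the main fits held no block. For replicate 1 of the inhibitor experiment the pairing was weak, since some libraries of different numbers correlated as highly. DEX 1 was at 0.131 with VEH 2 and 0.130 with VEH 1. KJ-PYR-9 1 was at 0.235 with KJ-PYR-9+DEX 2 and 0.184 with KJ-PYR-9+DEX 1. Other libraries of different numbers went down to -0.47 (KJ-PYR-9 3 with KJ-PYR-9+DEX 2). In the knockdown same-numbered libraries did not deviate together.

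The rule named, in each comparison and class, the member with the highest mean and the called member with the largest change, and up to 4 called genes of each related list with the smallest p. Other named genes, among them H2BC8, H4C2, H4C3, H2BC4, H3C1 under DEX and some genes of the lists (ASF1A, CHAF1A, LSM11), were chosen after their values were seen. The members, the lists and the tests were chosen with earlier results of these data known. All 60 members were found in RefSeq. 1 further gene is counted within its list and has no values of its own here.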

Additional observations from a re-analysis of the deposited data

Results flagged for a closer look

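The KJ-PYR-9 effect differed with and without DEX in 14 members, by the interaction test (limma, adjusted p under 0.05). The log2 differences, as the effect with DEX minus the effect without it, were negative for 11 H2B genes. They were -1.99 for H2BC14, -1.69 for H2BC6, -1.66 for H2BC4, -1.43 for H2BC18, -1.20 for H2BC8 and -1.17 for H2BC11. They were -1.06 for H2BC7, -0.95 for H2BC21, -0.91 for H2BC13, -0.77 for H2BC17 and -0.76 for H2BC12. The calls of H2BC6, H2BC7, H2BC12, H2BC13 and H2BC17 each ended when some single library was left out, H2BC17 with KJ-PYR-9 2 alone (adjusted p = 0.053). The H2A genes H2AC8 and H2AC21 differed by -1.36 and -1.30. H3C1 differed by 1.17, with a rise in KJ-PYR-9+DEX over a DEX level that was below VEH, and its call ended without any one of 4 libraries. The spread of single libraries within groups was not examined this way, since the groups hold 3 libraries each.

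Features without a gene symbol, which no comparison used, held 26.0% of the normalized counts of DEX 1 and 8.72% of those of KJ-PYR-9+DEX 3, against 1.62% to 1.86% in the VEH libraries. DEX 1 also had the lowest histone totals of its group in H4 and the lowest depth. Its part in the DEX results is given by the counts without it: 1 member called in place of 6 for DEX against VEH, 29 in place of 32 for KJ-PYR-9+DEX against DEX, and 11 in place of 14 for the difference.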

How the results depend on the processing

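For siMYC against siCtl the 4 called members became 10 with a pseudocount of 8, 9 with a mean of at least 50, 8 with TMM rescaling, 20 with edgeR, 32 with DESeq2 and 9 with GC content and length trends removed. With the replicate block 1 was called, and 0 with the block and that correction (limma, with 28 of 59 members at an unadjusted p under 0.05 without the block); without 1 library the count ran from 1 to 12. For KJ-PYR-9 against VEH the 42 became 25 with the GC content and length correction, which moved the median to 0.59 with or without the replicate block. For DEX against VEH the 6 became 3 without the filter, 3 in a fit of only the 2 groups, 10 with DESeq2, 20 with the replicate block and 18 with the block and the correction, and 1 to 8 without 1 library. For KJ-PYR-9+DEX against DEX the correction moved the median of 0.65 to 0.017 with or without the block, and of the 32 calls it left 14 without the block (24 called in all) and 21 with it (37 called). For the difference of the KJ-PYR-9 effects the 14 became 27 with the block, 26 with the block and the correction, and 9 to 14 without 1 library. Causes of these moves were not tested.

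Of the named values that turned sign, H2BC12 in KJ-PYR-9+DEX against DEX (0.77) was called and the others were not. With the correction, with or without the block, H1-4 was at 0.10 for DEX, -0.82 for KJ-PYR-9+DEX against DEX and -0.16 for the difference, H2AC8 at -0.25 and H2BC12 at -0.16 for KJ-PYR-9+DEX against DEX, and H2AC6 at -0.017 for MB3. With TMM rescaling H1-4 was at -0.0031 for KJ-PYR-9+DEX against DEX, and H2BC12 for DEX was at -0.0058, at -0.0093 with edgeR and at -0.0014 with DESeq2. Without 1 library, H1-4 ran from -0.30 to 0.18 for KJ-PYR-9, from -0.14 to 0.24 for KJ-PYR-9+DEX against DEX and from -0.18 to 0.31 for the difference. For DEX, H2BC12 ran from -0.082 to 0.12 and H3C10 from -0.21 to 0.061. H4C5 ran from -0.17 to 0.36 for the difference, and for MB3 H2AC6 from -0.040 to 0.15 and H2BC12 from -0.40 to 0.060. Class totals kept their values within the spread of replicates under TMM rescaling and without each library.

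In the inhibitor and MB-3 experiments the block ended no member call and moved no other count of members by over 1.5 times. In the knockdown, whose numbers did not pair the libraries (correlations of -0.35 to -0.02), it ended the calls of H3C2, H4C3 and H4C9. Low members such as H4C6, H3C15 and H2BC6 rest on few reads. The reads of shared copies and of genes that overlap on opposite strands cannot be assigned with certainty.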

Other observations

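Histone chaperones, which carry histones to and from DNA, had called genes in both directions with KJ-PYR-9. Of 20, 6 were higher and 4 lower in KJ-PYR-9 than in VEH (7 and 8 with the replicate block), near the 25.4% and 17.5% of all genes; with the block and the GC content and length correction 0 were higher and 3 lower. Among the 6 and 4 were CHAF1A of the replication-coupled assembly factor at 0.50 and ASF1A at -0.96. In KJ-PYR-9+DEX against DEX 7 were higher and 6 lower, near the 33.6% and 35.1% of all genes, or 4 and 4 with the block and the correction, with CABIN1 at 1.13, HIRA at 1.30, ATRX at -1.88 and ASF1A at -1.92. In DEX against VEH 0 were higher and 3 lower (CABIN1 at -0.61, UBN1 at -0.54 and HIRA at -0.61), with 2 higher and 6 lower at an unadjusted p under 0.05 (limma), 0 higher with edgeR and 2 with DESeq2, and 4 and 6 with the replicate block. In siMYC HIRA was higher (0.70) and NAP1L1 lower (-0.79), and nothing else of the list passed there. The KJ-PYR-9 effects on CABIN1, UBN1 and HIRA were higher with DEX than without, by 0.88, 0.87 and 0.78; for UBN1 the effect was 0.44 with DEX and -0.43 without.

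Of 11 genes for polyadenylation of histone transcripts and the RNA exosome, 3 were higher and 1 lower in KJ-PYR-9 (3 and 4 with the block, 2 and 3 with the correction added), led by EXOSC4 at 0.94 and CPSF1 at 1.22. In KJ-PYR-9+DEX against DEX 4 were higher and 4 lower (3 and 2 with the block and the correction), and in DEX against VEH 0 were higher (2 at an unadjusted p under 0.05, 0 with edgeR, 1 with DESeq2, 4 with the block) and 2 lower (4 with the block). In siMYC CPSF6 was lower (-0.57). In MB3 limma called 0 genes of these 2 lists, with 2 chaperones higher and 2 of the 11 lower at an unadjusted p under 0.05.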
